A study of Homo sapiens with 6 samples.

Results

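SR proteins and heterogeneous nuclear ribonucleoproteins (hnRNPs) were examined in the human neuroblastoma line SH-SY5Y after atrazine, a triazine herbicide, and after the vehicle dimethyl sulfoxide (DMSO). Members were all probes whose platform annotation gives a gene symbol that starts with SRSF or HNRNP. There were 38 such probes of 22184 on the array, 12 for 11 SRSF genes and 26 for 21 HNRNP genes, or 32 of the 16578 genes the annotation names. RNA was measured on 6 Illumina bead arrays, 3 from atrazine-treated cells and 3 from DMSO-treated cells. Neither dose nor exposure time is given in the sources used here. Replicates are numbered in the labels without saying that each was a culture of its own. The p-values then describe only how far these arrays scatter, and that scatter may be technical.

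SR proteins bind exonic sequences through RNA recognition motifs and recruit the splicing machinery through tails rich in arginine and serine, whose phosphorylation sets their activity and location. hnRNPs coat the nascent transcript and often, though not always, oppose exon inclusion at the sites where SR proteins favour it. Many members of both families also act in mRNA export, stability or translation, and several adjust their own level through alternatively spliced transcripts that are degraded. Neurons rely heavily on alternative splicing, and the balance between these families is one of the known inputs to it.

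The groups differed in array brightness. The mean raw intensity was 235.1 to 311.3 on the atrazine arrays, against 532.2 to 939.1 on the DMSO arrays, and 43.6% to 52.0% of probes were above background (detection p under 0.05) on the atrazine arrays, against 58.9% to 59.8% on the DMSO arrays. Values below are log2 intensities after background correction and quantile normalization, which forces the arrays to a common distribution. Atrazine replicate 2 stood apart, with a correlation across probes of 0.963 to 0.968 with the other atrazine arrays, which correlated with each other at 0.994. DMSO arrays correlated at 0.992 to 0.995 and the groups with each other at 0.805 to 0.888. Of 12969 probes tested, 8734 (67.3%) passed limma's test at an adjusted p under 0.05. Housekeeping scaling, an alternative used below, set the mean of 13 housekeeping genes equal on all arrays. These genes were not all stable. With quantile normalization 2 of them were higher and 3 lower in atrazine by the same test, with log2 changes from -1.87 (TFRC) to 0.81 (SDHA).

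The line's label was checked against fixed markers. Of 15 sympathoadrenal genes measured, 14 were above background on all 6 arrays, among them PHOX2A, ISL1, GATA2 and DBH, and HAND2 was not above background on any. Of those 14, 4 were higher and 7 lower in atrazine, from INSM1 at 2.22 to DBH at -1.63, and the list's summed normalized intensity was 34038 to 35546 in atrazine, against 48251 to 53777 in DMSO. Of 11 leukocyte markers, 3 were tested and all 3 were higher in atrazine, SPI1 by 3.47, AIF1 by 3.29 and PTPRC by 0.79. LYZ was above background on 2 atrazine and 0 DMSO arrays and CD68 on 0 atrazine and 2 DMSO arrays, and neither was tested. CD14, ITGAM, CD3E, TYROBP, LAPTM5 and CSF1R were above background on 0 arrays. The summed normalized intensity of those 11 was 979.0 to 1072 in atrazine, against 351.4 to 368.1 in DMSO. For 12 markers of mesenchymal-type cells the sum was 3389 to 4277 in atrazine, against 1561 to 1772 in DMSO, with 4 of 9 tested members higher and 4 lower, and FN1, COL3A1 and YAP1 not above background. For 7 epithelial markers it was 321.1 to 332.3 in atrazine, against 275.2 to 295.1 in DMSO, and 0 of 2 tested members passed. The brightest genes weigh most in these sums. They were VIM among mesenchymal-type markers (mean log2 11.59 in atrazine and 9.99 in DMSO) and STMN2 among sympathoadrenal ones (14.05 and 14.41). In atrazine, SPI1 and AIF1 were the brightest leukocyte markers. The sums include probes not above background, and only 2 of the 11 leukocyte markers were above it on any DMSO array. The part of these markers and of array brightness in the results below was not tested. In cultures like these, fewer cells expressing a gene and less RNA per cell cannot be told apart.

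The upstream sequences of 4 genes are printed here, a strong rise and a strong fall from each family. They are the 250 bases before the first listed transcription start, from RefSeq on build GRCh38.p14, read 5′ to 3′ on the gene's strand. Capitals mark matches, on either strand, to 7 motifs that were searched: the CCAAT box (CCAAT), the GC box (GGGCGG), an ETS core (CCGGAAG), the core of the NRF1 site (GCATGCGC), the E-box (CACGTG), the TATA box (TATAAA) and the cAMP response element (TGACGTCA). None of these motifs contains another.
SRSF5 (rose; chr14:69766892-69767141, plus strand): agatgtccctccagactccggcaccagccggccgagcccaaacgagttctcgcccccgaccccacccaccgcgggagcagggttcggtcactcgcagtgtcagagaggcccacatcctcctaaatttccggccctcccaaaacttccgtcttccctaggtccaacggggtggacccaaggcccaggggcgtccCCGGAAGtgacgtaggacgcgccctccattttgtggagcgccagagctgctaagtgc
SRSF3 (fell; chr6:36594112-36594361, plus strand): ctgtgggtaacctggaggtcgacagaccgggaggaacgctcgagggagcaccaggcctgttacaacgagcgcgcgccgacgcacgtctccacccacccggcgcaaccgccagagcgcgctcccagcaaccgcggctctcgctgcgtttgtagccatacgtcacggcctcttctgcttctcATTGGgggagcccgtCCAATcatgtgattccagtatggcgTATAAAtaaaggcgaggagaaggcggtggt
HNRNPUL1 (rose; chr19:41262307-41262556, plus strand): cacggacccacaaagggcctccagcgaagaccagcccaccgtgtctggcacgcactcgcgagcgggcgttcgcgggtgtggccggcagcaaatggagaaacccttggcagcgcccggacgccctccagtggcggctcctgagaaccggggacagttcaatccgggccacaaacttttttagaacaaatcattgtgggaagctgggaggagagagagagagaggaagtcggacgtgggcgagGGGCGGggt
HNRNPU (fell; chr1:244864544-244864793, minus strand): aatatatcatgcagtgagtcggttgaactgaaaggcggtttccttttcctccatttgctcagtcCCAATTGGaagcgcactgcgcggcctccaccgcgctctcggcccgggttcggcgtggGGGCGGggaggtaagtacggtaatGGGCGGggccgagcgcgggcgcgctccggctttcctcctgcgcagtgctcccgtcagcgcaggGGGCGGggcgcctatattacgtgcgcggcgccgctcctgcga

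Such windows were found for 30 of the 32 member genes, 10 SRSF and 20 HNRNP, and the same search was run over the windows of 27305 genes. In SRSF11, HNRNPDL and HNRNPF the first listed start lies inside the gene's span, so their windows overlap the gene itself. A CCAAT box was present in 65% of HNRNP windows and in 20% of SRSF windows, against 33% of all windows. The GC box was present in 75% of HNRNP windows and 30% of SRSF windows, against 42.3% of all. The E-box, a site bound by MYC-family factors, was found in 6 HNRNP windows (HNRNPA3, HNRNPD, HNRNPDL, HNRNPH2, HNRNPH3 and HNRNPM) and 0 SRSF windows, against 6.49% of all windows. The ETS core was in 3 HNRNP windows and 1 SRSF window (8.82% of all), and the TATA box was in 3 HNRNP and 2 SRSF windows (11.1% of all). The NRF1 core was in 1 SRSF window and 0 HNRNP windows (2.81% of all), and the cAMP response element was in none of either family (1.77% of all). Both families were rich in CpG, with medians of 24.5 dinucleotides per window in SRSF genes and 25 in HNRNP genes, against 11 over all genes. A match describes these letters only and is no evidence that a factor binds there.

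Taken as families, SR protein and hnRNP probes were both more often lower than higher in atrazine. For hnRNPs, as over all tested probes, this turned when probes dim on any array were left out. With a detection p under 0.01 required on all 6 arrays, 8 HNRNP probes were higher and 6 lower of 16, and 1 SRSF probe was higher and 4 lower of 8. Over the 6178 probes tested under that filter, 34% were higher and 30.5% lower. That filter also selects on the level in atrazine. The member probes it removed were dim there and all had log2 changes below 0, so the turn follows in part from the filter. Of the 12 SRSF probes, 11 passed the filter on dim probes, which asks for detection on all 3 arrays of at least 1 group. Of these 11, 1 was higher, 6 were lower and 4 did not pass the threshold. Of the 26 HNRNP probes, 23 were tested, and 8 were higher, 12 were lower and 3 did not pass. All 11 tested SRSF probes and 17 of the 23 HNRNP probes were above background on all 6 arrays, against 9055 of all 12969. The other HNRNP probes (HNRNPA1 probe ILMN_1663447, HNRNPM probe ILMN_1725199, HNRNPF, HNRNPH2, HNRNPLL and HNRNPU) entered through DMSO only. The filter thus favoured falls among them, and all but HNRNPLL were called lower. Over all 12969 tested probes, 27.7% were higher and 39.6% lower, against 9.09% and 54.5% of SRSF probes and 34.8% and 52.2% of HNRNP probes. All but 1 of the 11 tested SRSF probes had a log2 change below 0 (90.9%), as did 14 of the 23 HNRNP probes (60.9%) and 58.9% of all tested probes.

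The median log2 change was -0.48 for SRSF probes and -0.51 for HNRNP probes, against -0.18 over all tested probes. On single atrazine arrays, the SRSF median minus the HNRNP median, each relative to the DMSO means, was 0.12, -0.16 and 0.11 on replicates 1, 2 and 3, so that the mean difference of 0.03 was smaller than the spread between arrays (SD 0.16, n = 3). The difference depended on the processing: it was -0.20 under median, housekeeping or no scaling, -0.17 without the detection filter, and -0.70 with the strict filter, where the SRSF median was -0.42 and the HNRNP median 0.28. The median of all probes under the strict filter was 0.003. Since the strict filter removes probes of both families that were dim in atrazine, the difference under it depends on that selection. The middle of the SRSF distribution was narrower: its quartiles were -0.76 and -0.24, against -1.14 and 0.48 for HNRNP probes. The groups did not overlap in 9 SRSF and 21 HNRNP probes, against 75.0% of all tested probes. A change of at least 2-fold that passed the threshold was seen in 3 SRSF and 11 HNRNP probes, against 25.7% of all tested probes. These were 1 rise and 2 falls among SRSF probes and 4 rises and 7 falls among HNRNP probes, against 12.9% higher and 12.7% lower over all tested probes. Members of a family are different genes and not replicates, so no test was made over them.

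**Figure D1:**
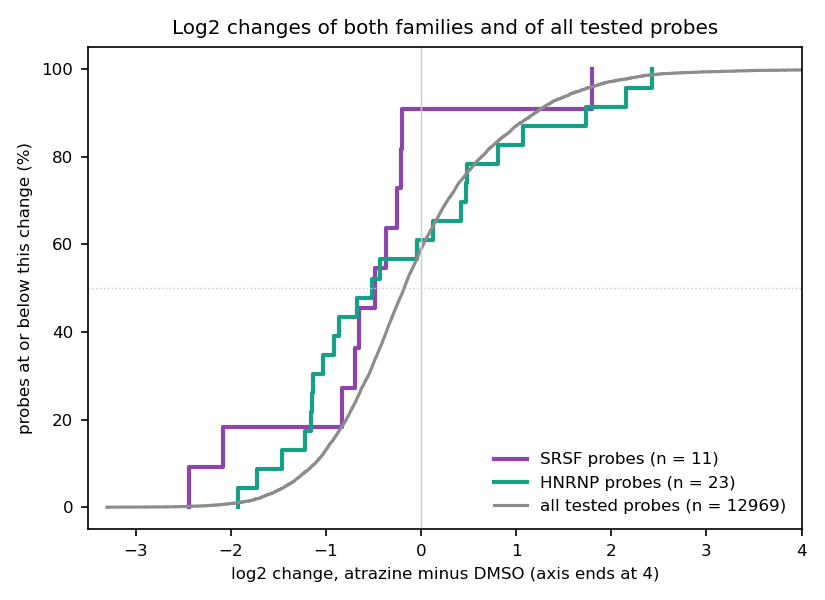
Cumulative share of probes (vertical axis, %) at or below a given log2 change, atrazine minus DMSO (horizontal axis), for 11 SRSF probes, 23 HNRNP probes and all 12969 tested probes. The families meet near the middle (medians of -0.48 and -0.51), and 90.9% of SRSF and 60.9% of HNRNP probes lie below 0.

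**Figure D2:**
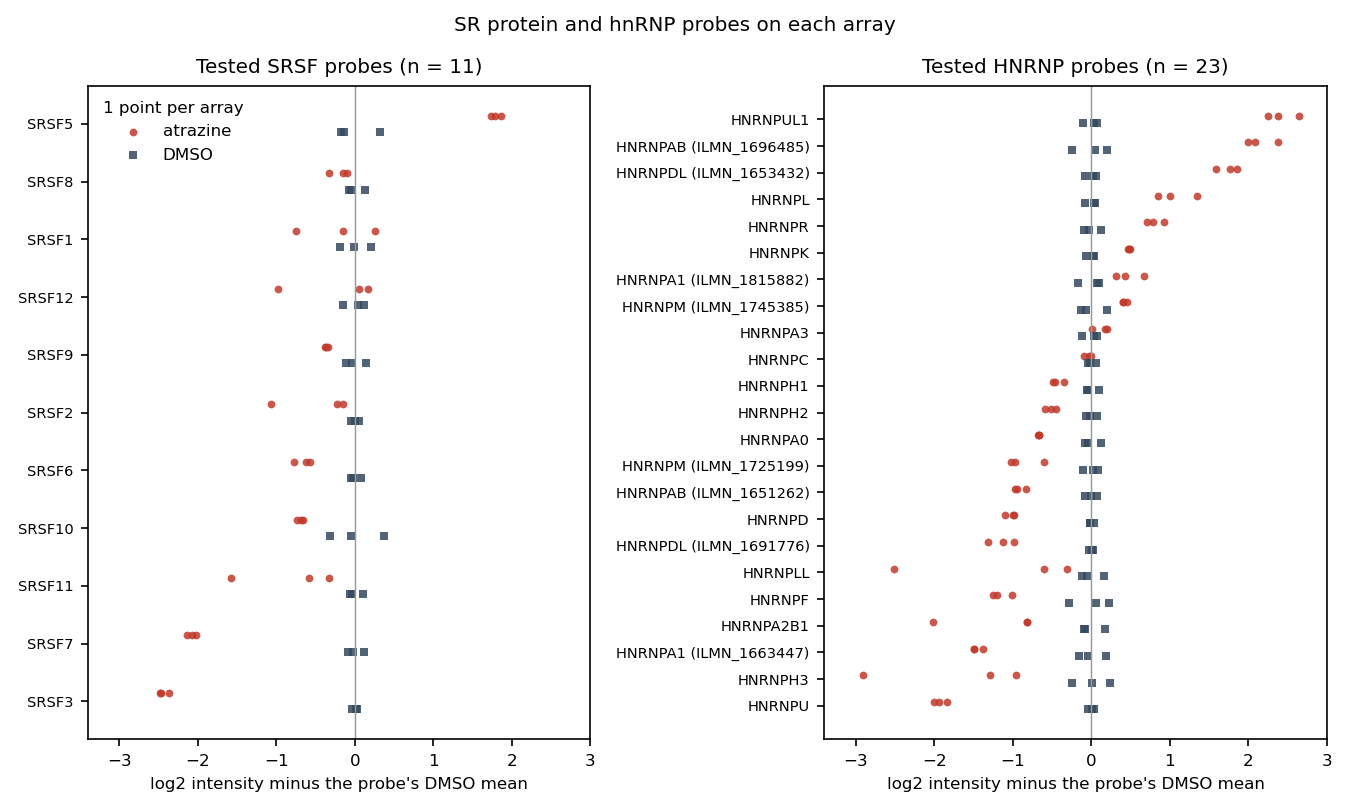
Log2 intensity of each tested probe on each array, minus that probe's DMSO mean, with SRSF probes on the left and HNRNP probes on the right. Each row has 3 atrazine points (red circles) above 3 DMSO points (dark squares), and rows run from the largest rise at the top to the largest fall at the bottom. In 7 rows, among them HNRNPLL, HNRNPH3 and SRSF11, 1 atrazine array (replicate 2) lies well to the left of the other atrazine arrays.

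Among SR proteins, the largest falls were those of SRSF3 and SRSF7, closely related proteins that act as adaptors for mRNA export as well as in splicing. SRSF3, the smallest SR protein (probe ILMN_1723212), gave 6.80, 6.70 and 6.69 in atrazine, against 9.13, 9.18 and 9.20 in DMSO. This is a log2 change of -2.44 (SE 0.09, limma adjusted p = 2.78e-06), a level 5.43-fold lower in atrazine and the 26th largest fall among all tested probes. SRSF7, which carries a zinc knuckle beside its RNA recognition motif (probe ILMN_1778836), gave 8.36, 8.32 and 8.25 in atrazine, against 10.50, 10.30 and 10.36 in DMSO. It changed by -2.08 (SE 0.10, adjusted p = 7.13e-06), or 4.22-fold lower. In both genes the arrays of each group lay close together and the groups were far apart. Both probes stayed above background on all 6 arrays, SRSF3 by a small margin in atrazine (detection p of 0.013, 0.024 and 0.017). The SRSF3 probe left when a detection p under 0.01 was required. Its change was -1.87 without background correction and -3.36 under median scaling, so its fold is uncertain.

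SRSF5 was the only SR protein probe to rise. It encodes an SR protein with a pair of RNA recognition motifs, close in sequence to SRSF6 (probe ILMN_1761996). It gave 12.31, 12.37 and 12.45 in atrazine, against 10.44, 10.40 and 10.91 in DMSO, a log2 change of 1.80 (SE 0.15, adjusted p = 5.97e-05), or 3.47-fold higher. SRSF6, known for its action on exons of the tau gene MAPT, went the other way, at 11.12 ± 0.11 in atrazine and 11.78 ± 0.07 in DMSO (SD, n = 3 each; change -0.65, adjusted p = 0.0010). The rise of SRSF5 is relative to the other probes of the array. Its raw intensity was 2698, 3039 and 4023 in atrazine, against 2389, 3992 and 2821 in DMSO, which overlap. Without scaling between arrays its change was 0.10 and did not pass.

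SRSF1, the founding SR protein, did not pass (change -0.21, SE 0.25, adjusted p = 0.46), while its paralog SRSF9 was lower by a small margin (-0.36, SE 0.10, adjusted p = 0.016), a call that ended under housekeeping scaling (-0.23, adjusted p = 0.13). SRSF2, a mainly nuclear SR protein also known as SC35, gave -0.48 (adjusted p = 0.10), and SRSF8, a related gene that arose by retrocopy, gave -0.20 (adjusted p = 0.15). SRSF10, a splicing repressor that is activated by dephosphorylation during heat shock, has 2 probes. The probe ILMN_1658460 gave 9.33, 9.24 and 9.29 in atrazine, against 10.36, 9.94 and 9.67 in DMSO (change -0.70, SE 0.17, adjusted p = 0.0087). The other, ILMN_1664522, gave 4.73, 4.65 and 4.71 in atrazine, against 4.65, 4.70 and 4.76 in DMSO, and was above background on 0 arrays. SRSF12, a paralog of SRSF10, did not pass (-0.26, adjusted p = 0.45). SRSF11, a regulator of neuronal microexons, was lower (-0.83, SE 0.30, adjusted p = 0.039).

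Several of these smaller values rested on atrazine replicate 2. In 7 of the 34 tested members that array was 0.5 or more below the mean of the other atrazine arrays on the log2 scale, and in 0 members it was that much above. Over all tested probes the shares were 12.7% and 7.74%. The 7 were SRSF1, SRSF2, SRSF11, SRSF12, HNRNPA2B1, HNRNPH3 and HNRNPLL. Without that array the changes of SRSF1 and SRSF12 were 0.05 and 0.11, SRSF2 gave -0.19, and none of these passed. SRSF11 gave -0.47 without it (adjusted p = 0.0051), and its call was lost without any of DMSO replicates 1 (0.091), 2 (0.10) and 3 (0.079) or atrazine replicate 1 (0.051).

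Among hnRNPs, the A group binds short AG-rich motifs and often represses exons. HNRNPA2B1, which also helps sort RNAs into vesicles (probe ILMN_1796491), gave 11.77, 10.57 and 11.77 in atrazine, against 12.49, 12.76 and 12.50 in DMSO. Its change was -1.22 (SE 0.31, adjusted p = 0.011), and -0.80 without atrazine replicate 2 (adjusted p = 1.26e-04), so the direction did not depend on the low array. HNRNPA0, a binder of AU-rich mRNAs, was lower (-0.67, SE 0.10, adjusted p = 7.83e-04). HNRNPA3 did not pass (0.13, SE 0.11, adjusted p = 0.31). Neither probe of HNRNPA1L2, a retrocopy of HNRNPA1, was above background on any array. Probe sequences were not used here, and signal from near-identical copies cannot be told apart from that of the named gene.

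All 4 genes of the F and H group, which bind runs of G, were lower, against 39.6% of all tested probes, although HNRNPH2 turned under other scalings and HNRNPF no longer passed under housekeeping scaling (-0.44, adjusted p = 0.062). HNRNPF and HNRNPH2 entered the test through the DMSO arrays only. HNRNPH3 (probe ILMN_1654920) gave 8.40, 6.78 and 8.73 in atrazine, against 9.44, 9.92 and 9.70 in DMSO. It changed by -1.72 (SE 0.46, adjusted p = 0.013) and by -1.13 without atrazine replicate 2. HNRNPF (probe ILMN_1668179) gave 5.78, 5.54 and 5.60 in atrazine, where 1 of 3 arrays was above background, against 6.51, 7.02 and 6.85 in DMSO. Every atrazine value lay below every DMSO value, with a change of -1.15 (SE 0.15, adjusted p = 4.52e-04). HNRNPH1 changed by -0.43 (SE 0.10, adjusted p = 0.0063). HNRNPH2 was detected on 0 atrazine arrays and on all 3 DMSO arrays, at a level that allows no fold, and its direction depended on the scaling. Its change was -0.51 in the values used here (adjusted p = 0.0026), 0.06 under median scaling, which did not pass, and 1.03 under housekeeping scaling, which did (adjusted p = 1.13e-04).

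The U group holds probes that moved in opposite directions. HNRNPUL1, a protein with a DNA-binding SAP domain and a role at DNA breaks (probe ILMN_1719728), gave 10.28, 10.67 and 10.41 in atrazine, against 8.10, 7.92 and 8.06 in DMSO. This is a rise of 2.43 on the log2 scale (SE 0.13, adjusted p = 1.02e-05), or 5.38-fold. HNRNPU, also called scaffold attachment factor A, which links RNA to chromatin (probe ILMN_1718571), gave 5.31, 5.21 and 5.15 in atrazine, against 7.11, 7.18 and 7.15 in DMSO. No atrazine array had it above background, which puts it at least 2.38-fold lower there in the quantile-normalized values (fitted change -1.92, adjusted p = 8.05e-06). Its change was smaller under housekeeping scaling (-1.09) and without background correction (-1.12). Such a bound takes, on each atrazine array, the lowest level of a detected probe or the probe's own, whichever is higher. Here and below it holds only within the quantile-normalized values. The groups of HNRNPU and of HNRNPUL1 were widely separated in opposite directions.

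HNRNPL, which binds CA repeats (probe ILMN_1679378), gave 9.33, 9.68 and 9.18 in atrazine, against 8.36, 8.25 and 8.37 in DMSO (change 1.07, SE 0.14, adjusted p = 5.08e-04). That direction turned under median scaling (-0.12, not past) and without scaling (-0.83). Its paralog HNRNPLL, known as the regulator of CD45 splicing in lymphocytes, had atrazine values of 7.80, 5.59 and 7.50, against 8.05, 8.27 and 7.99 in DMSO. All atrazine values were lower, but the change of -1.14 did not pass (SE 0.52, adjusted p = 0.086). Without atrazine replicate 2 it was -0.47 and passed (adjusted p = 0.0091), as did -1.63 without atrazine replicate 1 (adjusted p = 0.038). HNRNPR, which acts in the transport and splicing of neuronal transcripts, rose by 0.81 (SE 0.11, adjusted p = 5.45e-04), and gave -0.71 without scaling, which did not pass. HNRNPK, a KH-domain protein that binds C-rich RNA, rose by 0.48 (SE 0.09, adjusted p = 0.0024). Its direction turned under median scaling (-0.75, adjusted p = 8.19e-04) and without scaling (-1.46), and its 0.23 under housekeeping scaling did not pass (adjusted p = 0.13). The median change of all tested probes was -0.90 under median scaling and -1.61 without scaling. HNRNPL, HNRNPR and HNRNPK lay above that median in both settings. HNRNPC, which binds U tracts and masks cryptic exons, gave 12.35 ± 0.04 in atrazine and 12.39 ± 0.06 in DMSO (SD, n = 3 each), a difference within the spread between arrays. HNRNPCL1, a C-like gene, was above background on 0 arrays.

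Probes of the same hnRNP gene disagreed in direction. HNRNPA1, HNRNPAB, HNRNPDL and HNRNPM had 2 tested probes each, and in each of them 1 probe was higher and the other lower in atrazine, all 8 past the threshold. The opposite directions held under median and housekeeping scaling in HNRNPAB and HNRNPDL. Under median scaling both probes of HNRNPA1 (-0.73 and -2.09) and of HNRNPM (-0.33 and -0.90) were lower. The median of all tested probes was -0.90 there, and the brighter probe of each gene (-0.73 and -0.33) lay above it. Under housekeeping scaling both HNRNPM probes lay above 0 (0.65 and 0.07, the second not past). For background, 954 genes of the array had at least 2 tested probes, of which the 2 brightest were taken. Both passed in opposite directions in 155 of them (16.2%), or 35.9% of the 432 genes in which both passed. The hnRNP count rests on 4 genes.

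HNRNPAB, a protein that binds RNA and the CArG box of promoters, had 2 bright probes. Its probe ILMN_1696485 gave 12.16, 12.46 and 12.07 in atrazine, against 10.28, 9.83 and 10.12 in DMSO, a rise of 2.15 (SE 0.16, adjusted p = 3.37e-05). Its probe ILMN_1651262 gave 11.61, 11.74 and 11.62 in atrazine, against 12.65, 12.49 and 12.57 in DMSO, a change of -0.92 (SE 0.10, adjusted p = 1.78e-04). The annotation assigns both to the same RefSeq transcript. Raw intensities of the rising probe were 2393, 3242 and 3193 in atrazine, against 2157, 2753 and 1710 in DMSO, and those of the falling probe were 1577, 1874 and 2284 in atrazine, against 9489, 13571 and 8029 in DMSO.

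HNRNPDL, a relative of HNRNPD that regulates its own splicing, gave 12.43, 12.69 and 12.60 on probe ILMN_1653432 in atrazine, against 10.86, 10.77 and 10.89 in DMSO. That probe, annotated to a non-coding transcript of the gene, rose by 1.74 (SE 0.11, adjusted p = 1.85e-05). The other, ILMN_1691776, annotated to a coding transcript, gave 8.41, 8.22 and 8.56 in atrazine, against 9.50, 9.55 and 9.54 in DMSO (change -1.14, SE 0.11, adjusted p = 1.25e-04). HNRNPD itself, also called AUF1, a regulator of the decay of AU-rich mRNAs, has 1 probe (ILMN_1751368). It gave 10.99, 10.88 and 10.99 in atrazine, against 11.96, 12.02 and 11.96 in DMSO, and changed by -1.03 (SE 0.09, adjusted p = 8.17e-05). HNRNPD and HNRNPDL lie 48.6 kb apart on chromosome 4 of GRCh38.p14, and HNRNPLL and SRSF7 lie 140.7 kb apart on chromosome 2, with GALM between them.

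HNRNPA1, the best known hnRNP repressor of exons, gave 10.16, 10.51 and 10.27 on probe ILMN_1815882 in atrazine, against 9.91, 9.68 and 9.93 in DMSO. This was a rise of 0.47 (SE 0.13, adjusted p = 0.014), which turned to -0.73 under median scaling and was lost without DMSO replicate 2 (adjusted p = 0.052) and under housekeeping scaling (0.25, adjusted p = 0.13). Its dimmer probe ILMN_1663447 gave 6.13, 6.14 and 6.24 in atrazine, with 2 of 3 arrays above background, against 7.82, 7.47 and 7.59 in DMSO (change -1.46, SE 0.12, adjusted p = 5.49e-05). HNRNPM, a splicing regulator known from epithelial to mesenchymal transition, gave 12.64, 12.64 and 12.69 on probe ILMN_1745385 in atrazine, against 12.43, 12.10 and 12.16 in DMSO. It rose by 0.42 (SE 0.12, adjusted p = 0.014), which was lost without DMSO replicate 3 (adjusted p = 0.050) and turned to -0.33 under median scaling. Its probe ILMN_1725199 lay near background, at 5.38, 5.33 and 5.75 in atrazine, against 6.38, 6.24 and 6.43 in DMSO (change -0.86, SE 0.14, adjusted p = 0.0011). Under housekeeping scaling the change of that dim probe was 0.07 and did not pass.

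**Figure D3:**
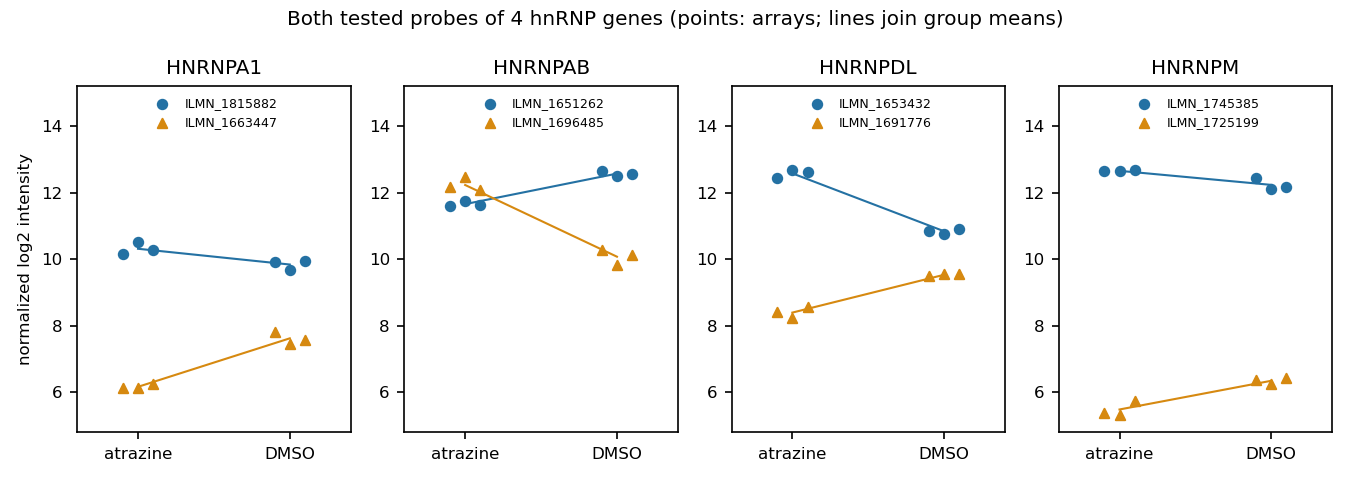
Normalized log2 intensity of both tested probes of HNRNPA1, HNRNPAB, HNRNPDL and HNRNPM, with atrazine left of DMSO. Points are arrays, lines join the group means and colours separate the probes, whose lines slope in opposite directions in each of the 4 genes with quantile normalization, while other scalings turn a probe of HNRNPA1 and of HNRNPM.

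The 2 probes of a gene were also compared as a log ratio on the same array, which a constant scaling factor cannot move but quantile normalization can. As atrazine minus DMSO, the log2 ratio of the brighter over the dimmer probe changed by -3.07 in HNRNPAB (SE 0.15, adjusted p = 5.02e-06) and by 2.87 in HNRNPDL (SE 0.16, adjusted p = 8.19e-06). It changed by 1.93 in HNRNPA1 (SE 0.16, adjusted p = 3.85e-05) and by 1.28 in HNRNPM (SE 0.16, adjusted p = 3.37e-04). In the last pair of genes the dimmer probe was above background on 2 of 3 and 1 of 3 atrazine arrays, so the size is uncertain. Under median, housekeeping or no scaling the ratios changed by -2.89 in HNRNPAB, 3.17 in HNRNPDL, 1.36 in HNRNPA1 and 0.58 in HNRNPM, all past the threshold. These come from a limma fit over the ratios of all 954 genes, a test chosen after the opposite calls of the probes were seen and no independent support for them, and 60.3% of those genes passed it. The ratios did not overlap between the groups in any of the 4 genes, against 70.0% of the 954. In HNRNPAB the ratio was -0.55, -0.72 and -0.45 in atrazine, against 2.37, 2.66 and 2.45 in DMSO. In HNRNPDL it was 4.02, 4.47 and 4.05 in atrazine, against 1.35, 1.21 and 1.35 in DMSO. A value for any of these 4 genes therefore holds for the named probe only.

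The directions of the smaller rises depended on the scaling between arrays. Under median scaling, where the median change of all probes was -0.90, 1 SRSF probe was higher and 10 were lower, and 3 HNRNP probes were higher and 17 lower. Over all tested probes, 15.3% were higher and 68.5% lower under that scaling. The member probes that stayed higher were SRSF5 (0.82), HNRNPUL1 (1.31), HNRNPAB probe ILMN_1696485 (1.16) and HNRNPDL probe ILMN_1653432 (0.85). Without any scaling these 4 did not pass (0.10, 0.60, 0.44 and 0.14). In that setting the limma p-values of member probes followed the size of the change and not a probe's own scatter. HNRNPH3, whose atrazine arrays scattered widely, had a limma adjusted p of 7.22e-21 there. Calls without scaling therefore say little about the scatter of a single probe. Under median scaling HNRNPL turned to -0.12 (not past), HNRNPK to -0.75 and HNRNPR to 8.24e-05 (not past). Under housekeeping scaling, where the median of all probes was 0.08, 1 SRSF probe was higher and 6 were lower, and 7 HNRNP probes were higher and 10 lower. Over all tested probes, 39.2% were higher and 30.7% lower under that scaling. The falls of SRSF3 (-3.36 under median and -2.39 under housekeeping scaling) and SRSF7 (-3.23 and -2.26) held under both. Relative to the median of all probes, the SRSF median was -0.31 and the HNRNP median -0.34 with quantile normalization, and -0.42 and -0.22 under both other scalings.

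**Figure D4:**
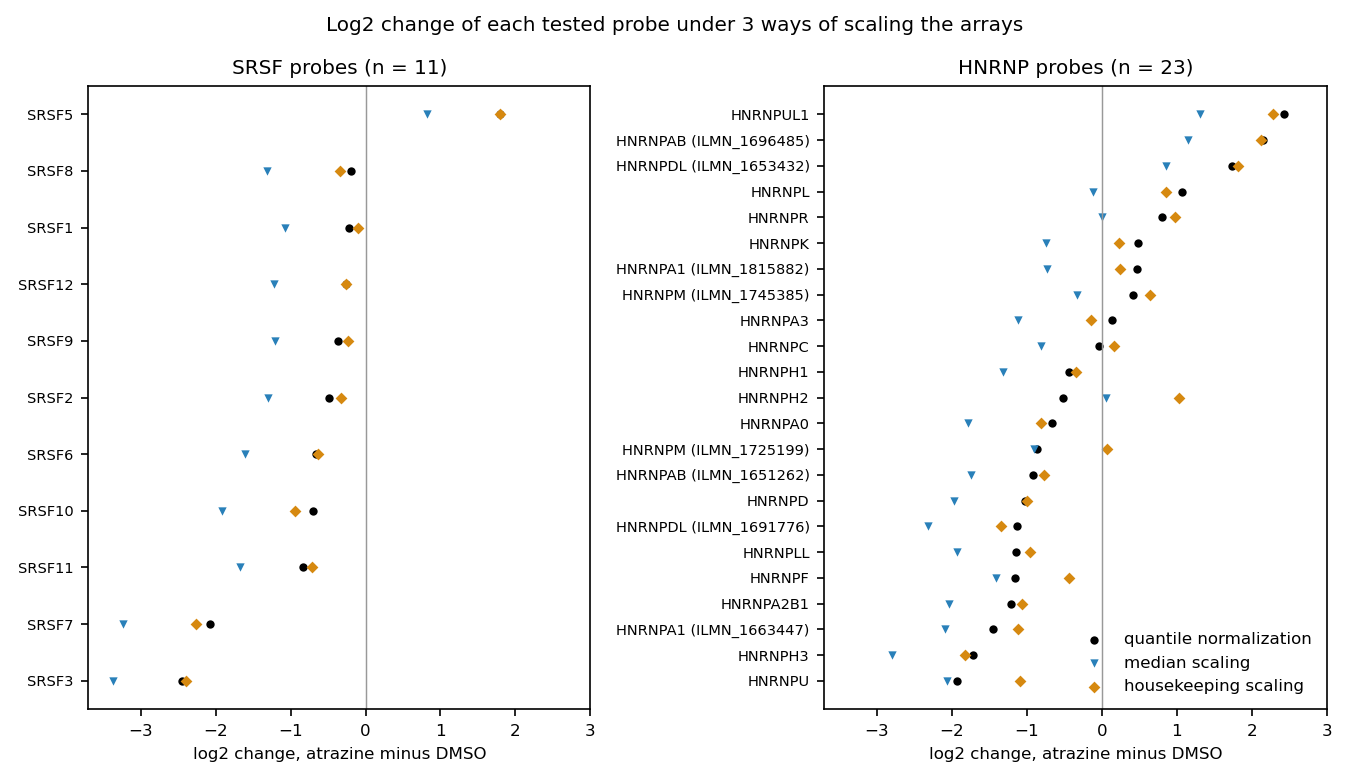
Log2 change, atrazine minus DMSO, of each tested SRSF probe (left) and HNRNP probe (right) after quantile normalization (black circles), median scaling (blue triangles) and housekeeping scaling (orange diamonds). Median scaling moves most probes to the left, while SRSF5, HNRNPUL1 and 1 probe each of HNRNPAB and HNRNPDL stay clearly above 0 in all 3.

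Other genes of the splicing pathway were read from 6 lists, with 1 probe per gene, the brightest tested. Of the genes named below, SON and UPF2 have 3 tested probes each, and SNRPB, CLK1 and CLK3 have 2 each. Their values hold for the brightest probe only. Their counts are to be read against the 27.7% higher and 39.6% lower of all tested probes. Proteins that belong to the hnRNPs under other symbols were higher in 4 and lower in 3 of 12 tested genes, with a median of 0.14. PTBP2, the neuronal polypyrimidine tract binding protein, rose by 1.20 (SE 0.20, adjusted p = 0.0013), while PCBP1, a poly-C binder, changed by -0.59 (SE 0.09, adjusted p = 8.75e-04) and SYNCRIP, the close relative of HNRNPR, by -1.06 (SE 0.20, adjusted p = 0.0028). SR-like and SR-related proteins were higher in 1 and lower in 5 of 15 tested genes, with a median of -0.36. SON, a scaffold of nuclear speckles, rose by 1.93, SCAF4 changed by -0.89, and SREK1, detected on 0 atrazine arrays, was at least 2.08-fold lower.

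The kinases and importins that handle SR proteins did not share a direction, with 4 of 11 tested genes higher, 2 lower and a median of 0.00. The importin TNPO2 rose by 0.94 (adjusted p = 9.08e-04), and CLK1 and CLK3, kinases that phosphorylate SR proteins in the nucleus, rose by 0.47 and 0.61 (adjusted p = 0.0030 and 0.0031). In the U1, U2 and Sm core list 3 of 21 genes were higher and 12 lower, with a median of -0.52, close to that of both families. The Sm protein gene SNRPD1 changed by -2.06, with 1 of 3 atrazine arrays above background, while SNRPB, another Sm protein, rose by 1.49 and SF3A2, a U2 subunit, by 1.35. Tri-snRNP and catalytic proteins were higher in 4 and lower in 5 of 18 (median -0.10), with PLRG1 at 1.83, PRPF3 at 1.74 and PRPF19 at -1.68, all past the threshold. Factors of nonsense-mediated decay, the route that removes self-regulating SR and hnRNP transcripts, were higher in 3 and lower in 3 of 9 (median 0.15). UPF2 rose by 1.02, SMG5 changed by -0.91, and SMG8, detected on 0 atrazine arrays, was at least 1.51-fold lower.

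**Figure D5:**
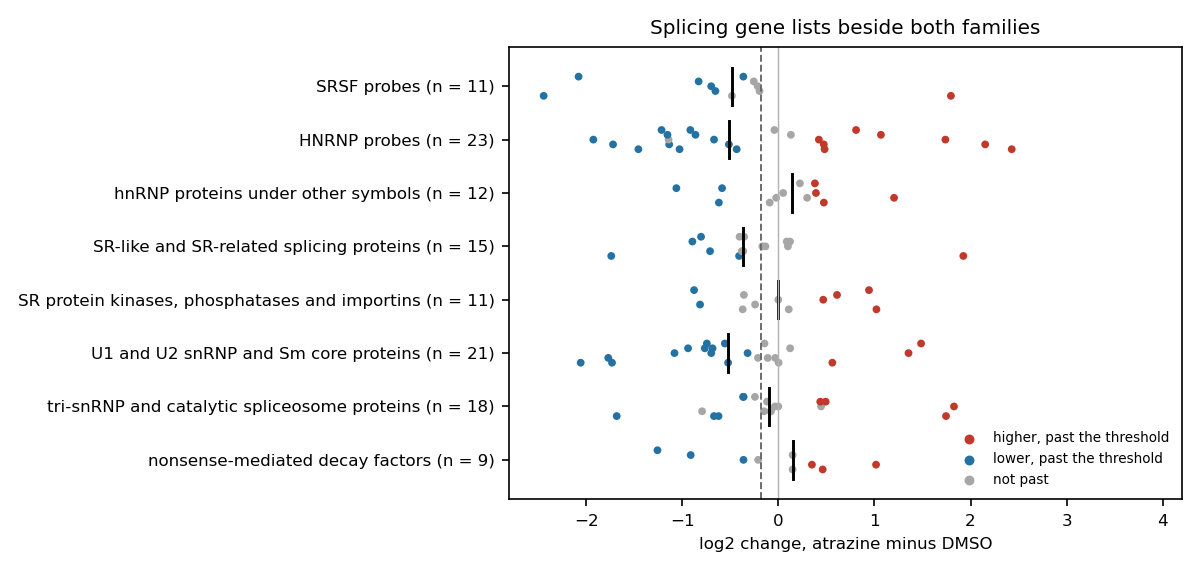
Log2 change, atrazine minus DMSO, of the tested SRSF and HNRNP probes and of the tested genes of 6 other splicing lists. Points are probes (red higher and blue lower past the threshold, grey not past), black bars are medians and the dashed line is the median of all tested probes (-0.18). The U1, U2 and Sm core list has its median (-0.52) nearest to those of both families.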

How the data were processed

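The authors deposited raw signal intensity for 22184 probes on each of 6 arrays, with a detection p-value beside each intensity per the file headers, and a table of processed intensity, which the values show to be quantile normalized on the linear scale without background subtraction (median 111.5 on every array). Scanner software is not given in the sources used here. Raw intensities were corrected in R 4.3.3 with limma 3.58.1 by normexp, with background inferred from detection p-values and an offset of 16, and quantile normalized as log2 values. Probes were kept apart, and 12969 were tested, those with a detection p-value below 0.05 throughout the 3 arrays of a group. The difference of atrazine minus DMSO came from lmFit and eBayes (two-sided), and p-values were adjusted by Benjamini-Hochberg across tested probes at a threshold of 0.05. An exact test of 3 arrays against 3 cannot give a two-sided p below 0.1. The number of arrays limits the precision. The procedure was tested on simulated data with few changed probes, rises and falls being equally likely. In the data themselves 67.3% of tested probes passed, so that simulation cannot show whether the scaling suits them.

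Of the 22184 probes, 19715 carry 1 gene symbol in the platform annotation and 2469 have none here, and 19695 were matched by gene ID to RefSeq. Members, lists and the rule for named genes were chosen with earlier results of these data known. Per-array values are given for member probes past the threshold with a log2 change of 1 or more and groups that do not overlap, and for tested genes with 2 or more probes, and for HNRNPLL, added after its values were seen. From each splicing list, the 3 genes of smallest p are named. Alternatives were other background corrections, scalings, filters, probe summaries, variance models, a replicate block and leaving out each array.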

Additional observations from a re-analysis of the deposited data

How the results depend on the processing

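Without background correction, with an offset of 50, with the authors' processed intensities, with an intensity trend and robust estimation, and with 1 probe per gene, every tested member probe that entered kept its direction and its side of the threshold. With the mean of a gene's probes the same held for the genes with 1 tested probe, and 6 HNRNP genes were higher and 9 lower of 19, since opposite probes were averaged. Both the scaling and the detection filter moved the family results. Under median scaling 10 SRSF probes were lower and 3 HNRNP probes higher, and without scaling 10 SRSF probes were lower, 0 higher, and 0 HNRNP probes higher (0 past the threshold in limma, though 338 of all tested probes were higher). Over all tested probes, 15.3% were higher and 68.5% lower under median scaling, and 2.61% were higher and 77.2% lower without scaling. The median changes of all tested probes were -0.90 and -1.61 in these settings. With detection p under 0.01 on all 6 arrays, 8 HNRNP probes were higher and 6 lower of 16, with a median of 0.28. The member probes that left were dim in atrazine and all had changes below 0. Over all probes under that filter, 34% were higher and 30.5% lower. The SRSF minus HNRNP median was -0.20 under median, housekeeping or no scaling, which differ by a constant, -0.17 without the detection filter and -0.70 with the strict one, against 0.03 in the main setting. Directions turned under median scaling for HNRNPA1 probe ILMN_1815882 (-0.73), HNRNPA3 (-1.12), HNRNPH2 (0.060), HNRNPK (-0.75), HNRNPL (-0.12) and HNRNPM probe ILMN_1745385 (-0.33), and under housekeeping scaling for HNRNPA3 (-0.14), HNRNPC (0.16), HNRNPH2 (1.03) and HNRNPM probe ILMN_1725199 (0.069). Without scaling they turned for HNRNPA1 probe ILMN_1815882 (-1.44), HNRNPA3 (-1.83), HNRNPK (-1.46), HNRNPL (-0.83), HNRNPM probe ILMN_1745385 (-1.04) and HNRNPR (-0.71). With array weights SRSF12 turned to 0.11, and without atrazine replicate 2 SRSF1 to 0.05 and SRSF12 to 0.11. Over the arrays left out in turn, SRSF12 lay between -0.48 and 0.11. Leaving out each array gave 1 SRSF probe higher throughout, 5 to 6 lower, 7 to 8 HNRNP probes higher and 12 to 13 lower, with an SRSF minus HNRNP median of -0.09 to 0.12. SRSF11 lost its call without the detection filter (adjusted p = 0.073). Deviations from the group means correlated at -0.17, -0.44 and -0.29 between arrays of the same replicate number (1 to 3). With 3 arrays per group and atrazine replicate 2 apart from the others, this cannot show whether the replicates were paired. With the replicate block, 1 SRSF probe was higher and 4 lower, and 7 HNRNP probes higher and 12 lower, with HNRNPA1 probe ILMN_1815882, SRSF9 and SRSF11 no longer passing (adjusted p = 0.051, 0.053 and 0.051). The causes of these shifts were not tested beyond what the construction of each setting shows. The log ratio of the 2 probes of HNRNPA1, HNRNPAB, HNRNPDL and HNRNPM kept its direction and passed in every setting that kept both probes. Dim probes limit the sizes of change for SRSF3, HNRNPF, HNRNPH2, HNRNPU and the dimmer probes of HNRNPA1 and HNRNPM.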
